A study of Homo sapiens with 6 samples.

Results

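Heat shock proteins and their DNAJ co-chaperones were examined in Hep3B cells with and without RFX6. The genes were chosen by symbol alone: a row of the count table belonged to the set if its name began with HSPA, HSPB, HSPD, HSPE, HSPH, HSP90 or DNAJ, with HSPBP1, HSPBAP1 and hyphenated names left out. This gave 69 of 16720 named rows, and 60 of the 69 passed the filter on low counts. Hep3B is an established human hepatocellular carcinoma cell line. RNA was sequenced from 3 libraries with a control guide (sgControl, genotype WT) and 3 libraries of RFX6 KO cells (sgRFX6). Guides were delivered with lentiCRISPRv2, a lentiviral vector that also encodes Cas9, and infected cells were selected with puromycin, after which clones grown from single cells were expanded. The paper reports that KO efficiency was checked by real-time PCR and by western blotting. The column headers name Cas without a guide for the controls and sg3 for the KO. The sources used here do not say how many clones or separate cultures the 3 libraries of a group stand for, so p-values measure the spread between these libraries, which may be technical, and a difference between clones and an effect of the KO cannot be told apart.

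Molecular chaperones bind unfolded or partly folded proteins and let them fold, move between compartments or be degraded. HSP70 proteins (HSPA) do so in cycles of ATP hydrolysis that J-domain proteins (DNAJA, DNAJB and DNAJC) start and HSP110 proteins (HSPA4, HSPA4L and HSPH1) reset by nucleotide exchange, HSP90 acts later on folded clients, HSPD1 and HSPE1 form the mitochondrial chaperonin, and small heat shock proteins (HSPB) hold aggregating proteins without ATP. Cytosolic members are induced by the heat shock factor HSF1, and endoplasmic reticulum (ER) members by the unfolded protein response. Liver cells, which secrete most plasma proteins, rely on the ER members.

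The libraries held 16730374 to 25070770 counts, so that 3 counts corresponded to 0.121 to 0.188 CPM (counts scaled to the library total after TMM normalisation). For RFX6 itself, the controls gave 117, 144 and 170 counts and the KO libraries 69, 59 and 77. Every KO library was below every control, with a log2 fold change of -0.82 ± 0.26 (SE, n = 3 per group, edgeR's quasi-likelihood test with Benjamini-Hochberg adjustment, adjusted p = 0.142), so the target's RNA did not pass edgeR's test. Of 15 other settings tried, limma-voom, which weights each library by its quality, and edgeR with a correction that removes each library's trend with transcript GC content called it, with adjusted p-values of 0.00274 to 0.505 over the 15. The transcription factors HNF4A (146, 161 and 146 CPM in sgControl) and FOXA2 (96.7, 93.0 and 93.3 CPM), which mark hepatocytes, were well counted, whereas APOA1 and TTR were at or under 2.45 CPM in every library. ALB was at 15.7, 32.1 and 12.9 CPM in sgControl and 21.5, 18.4 and 26.2 CPM in sgRFX6. AFP was at 2.31, 1.58 and 2.20 CPM in sgControl and 9.98, 17.1 and 16.0 CPM in sgRFX6. TF and SERPINA1 were at or under 10.8 CPM in every control. Of 10 hepatocyte markers tested, 1 (AFP) rose and 1 (FGB) fell by edgeR (20% against 3.74% of all genes). Limma-voom called 4 higher and 2 lower, where it called 31.1% of all genes. By edgeR 6 of the 10 lay above 0 and 4 below 0 on the log2 scale, with a median of 0.12. The summed level of the 10, most of it HNF4A, FOXA2 and APOB, was 370, 398 and 352 CPM in sgControl and 308, 293 and 291 CPM in sgRFX6. This sum was lower in every KO library (p = 0.1, two-sided and exact by permutation). APOB, named after its values were seen, was at 76.4, 60.5 and 62.7 CPM against 19.3, 15.9 and 46.1 CPM, without overlap (log2 fold change -1.29, edgeR, adjusted p = 0.116), and DESeq2 and limma-voom called it. T cell marker CD3E and red cell marker HBB stood at or under 0.136 CPM in every library. Of 5 fibroblast markers, 3 fell by edgeR (COL1A1, COL1A2 and PDGFRA), from at most 5.44 CPM in the controls (60% of the list against 3.74% of all genes). The summed level of the 5 was 27.3 to 33.8 CPM in sgControl and 21.2 to 56.1 CPM in sgRFX6, most of it LUM, which was not called. Summed blood markers were at 72.9 to 158 CPM and 62.8 to 100 CPM, almost all of it CD68, and PECAM1, the 1 endothelial marker tested, was called by limma-voom and not by edgeR or DESeq2. The part of other cells in the chaperone values was not tested, and in bulk RNA fewer cells with a transcript and less transcript per cell cannot be told apart.

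For 59 of the 60 genes tested, the difference between sgRFX6 and sgControl did not pass the test against the spread of the libraries. At an adjusted p under 0.05, 1 gene was called, HSPB8, which was lower in the KO, and none was called higher (edgeR, a negative binomial model of counts fitted over all genes). This is 1.67% of the set, against 3.74% of the 12839 genes tested (480 genes, of which 1.92% of all genes were higher and 1.81% lower). At an unadjusted p under 0.05, 4 chaperone genes passed, HSPB8, HSPB7, DNAJC1 and DNAJC18, each lower in the KO, which is 6.67% against 15.6% of all genes. DESeq2 called HSPB8, HSPB7 and DNAJC1, all lower, and limma-voom called 10 lower and 5 higher, where it also called 31.1% of all genes. Of the 60 genes, 30 lay above and 30 below 0 on the log2 scale, and their median was -0.00 against 0.02 over all genes. The 3 KO libraries lay wholly above or below the 3 controls for 7 genes, 11.7% of the set against 23.1% of all genes: HSPB8, HSPB7, DNAJC1, DNAJC18 and DNAJC8 were lower, and DNAJB6 and HSPA12A higher.

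**Figure D1:**
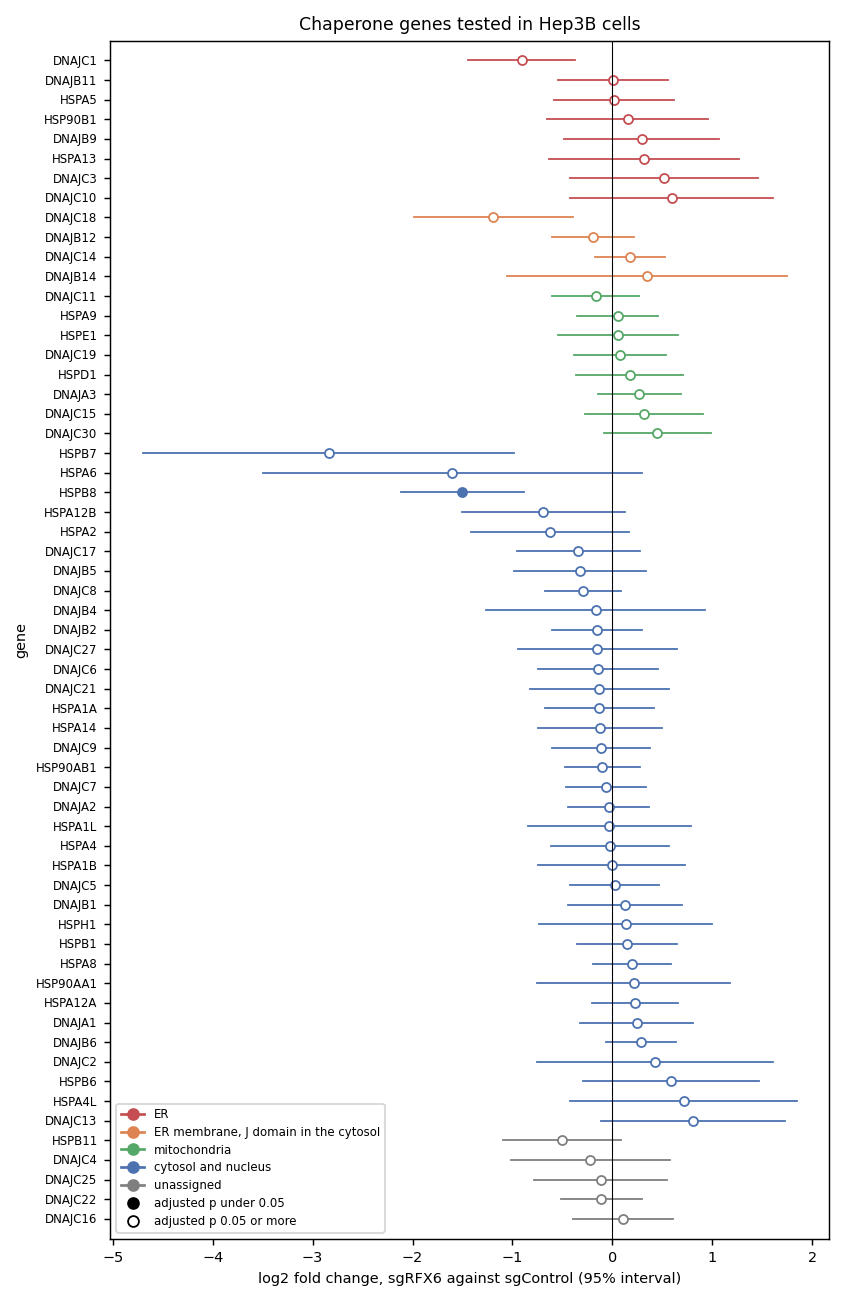
Log2 fold change of sgRFX6 against sgControl (horizontal axis) for the 60 chaperone genes tested, grouped by compartment in colour, with 95% intervals as lines. HSPB8, the filled point at -1.50, was the gene past the threshold, and the intervals of 56 genes span 0.

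Summed over all 69 genes, the chaperone transcripts were at 10524, 9346 and 10650 CPM in the sgControl libraries and at 9968, 9990 and 11796 CPM in the sgRFX6 libraries. The groups overlapped (two-sided exact permutation test, p = 0.7, with 0.1 the smallest p that 3 against 3 libraries allow). Levels were set by a few genes. The exon length used below joins all annotated exons of a gene and can exceed that of its main transcript, so the order depends on the annotation. Per kilobase of exon, HSP90AB1, the constitutive cytosolic HSP90, was the most abundant in sgControl at 503 CPM per kilobase, followed by the small heat shock protein HSPB1 at 397. The inducible HSP70 gene HSPA1A stood at 293 and HSPA8, the constitutive cytosolic HSP70, at 270 CPM per kilobase. HSPD1 (167), HSPA5 (127) and HSP90AA1 (122 CPM per kilobase) came next among genes without a near-identical copy.

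The small heat shock proteins held the one call. Promoters of HSPB8, which fell, and HSPB7, which had the lowest fold change of the set, are shown as the 250 bases before and 50 bases after the RefSeq start (GRCh38.p14), with capitals for the heat shock element, the paired site of heat shock factors. It was searched as GAANNTTC and as TTCNNGAA, each of which reads the same on both strands. HSPB8 lies at chr12:119178681-119178980 on the plus strand and HSPB7 at chr1:16017994-16018293 on the minus strand.
HSPB8 promoter: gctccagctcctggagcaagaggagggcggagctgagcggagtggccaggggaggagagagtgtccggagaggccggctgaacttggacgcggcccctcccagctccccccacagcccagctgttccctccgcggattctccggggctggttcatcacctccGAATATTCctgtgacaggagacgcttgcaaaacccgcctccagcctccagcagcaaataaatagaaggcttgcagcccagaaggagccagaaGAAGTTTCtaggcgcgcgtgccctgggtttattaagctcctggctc
HSPB7 promoter: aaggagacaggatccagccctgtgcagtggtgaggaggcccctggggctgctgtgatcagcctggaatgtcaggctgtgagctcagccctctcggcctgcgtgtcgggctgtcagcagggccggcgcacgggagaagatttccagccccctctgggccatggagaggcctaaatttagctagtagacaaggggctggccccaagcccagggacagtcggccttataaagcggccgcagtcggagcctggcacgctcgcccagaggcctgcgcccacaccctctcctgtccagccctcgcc
The HSPB8 window held 2 such elements, at bases 163 and 255, and the HSPB7 window held neither form.

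HSPB8 (ENSG00000152137.6), a small heat shock protein that works with the co-chaperone BAG3 in selective autophagy, spans chr12:119178642-119221131 on GRCh38. It was at 106, 175 and 91.4 CPM in the sgControl libraries and at 51.7, 43.5 and 36.3 CPM in the sgRFX6 libraries. All 3 KO libraries were below the lowest control, and sgControl library 2 was the highest. The means of 124 ± 44.8 and 43.8 ± 7.69 CPM (SD, n = 3) correspond to a log2 fold change of -1.50 ± 0.27 (SE, edgeR's quasi-likelihood test, adjusted p = 0.0183), with the KO mean 2.83-fold lower. Without sgRFX6 library 1 the adjusted p was 0.051, and without sgRFX6 library 2 it was 0.0577 (edgeR), so the call was lost with either, while the log2 fold change was -1.63 and -1.50. Without sgControl library 2 the log2 fold change was -1.17 and the call held (edgeR, adjusted p = 0.0353), and over the 15 other settings tried the adjusted p lay between 2.79e-05 and 0.0577. Around HSPB8, the median over the 50 closest genes tested was 0.18, on the other side of 0. BAG3, whose protein partners HSPB8, was named after its values were seen, and stood at 98.8, 84.4 and 123 CPM in sgControl and 76.1, 96.8 and 68.2 CPM in sgRFX6, a log2 fold change of -0.35 (edgeR, adjusted p = 0.495). Limma-voom called BAG3, and edgeR and DESeq2 did not.

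HSPB7, a small heat shock protein best known from heart and skeletal muscle (chr1:16014028-16019594), was scarce. It was at 2.12, 8.06 and 0.820 CPM in sgControl and at 0.645, 0.628 and 0.272 CPM in sgRFX6. The groups did not overlap, but sgControl library 2 alone held most of the signal. The log2 fold change was -2.84 ± 0.82 (SE) and did not pass the test (edgeR, adjusted p = 0.112). Without sgControl library 2 it was -1.52 (edgeR, adjusted p = 0.259). DESeq2, another count model, called it (adjusted p = 0.00639), as did edgeR with the GC correction (adjusted p = 0.0495), and over the other settings tried the adjusted p lay between 0.00333 and 0.259.

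CRYAB encodes alphaB-crystallin, which is also called HSPB5 and lies outside the name rule (chr11:111908565-111923722). It was at 14.5, 67.5 and 12.9 CPM in the sgControl libraries and at 1.09, 1.32 and 0.863 CPM in the sgRFX6 libraries. Its KO libraries were all far below the controls, and sgControl library 2 was again the highest. The log2 fold change was -4.86 ± 0.71 (SE, edgeR, adjusted p = 0.00795), and -3.66 without sgControl library 2 (edgeR, adjusted p = 0.00361). It was called in each of the 15 other settings tried, with adjusted p-values of 1.58e-14 to 0.0361. HSPB2, which lies head to head with CRYAB on chromosome 11 and shares exon bases with it on the opposite strand, was under the filter with 2, 22 and 5 counts against 0, 3 and 0. Whether counting used the strand is not given in the sources used here, so reads of these genes may have been mixed. HSPB3, on chromosome 5, was also under the filter, with 5, 20 and 2 counts against 1, 0 and 1. HSPB8, HSPB7, CRYAB, HSPB2 and HSPB3 thus all had their highest level in sgControl library 2, and the part of this library in the result was not tested beyond leaving it out of the fits given.

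EdgeR called none of the other small heat shock protein genes, whereas limma-voom called HSPB1 and HSPB6 higher and HSPB11 lower. HSPB1, which guards actin filaments and is abundant in tumour cells, was at 611, 707 and 628 CPM in sgControl and 830, 819 and 508 CPM in sgRFX6, with KO libraries 1 and 2 above and library 3 below all controls (log2 fold change 0.15, edgeR, adjusted p = 0.841). HSPB6, named after its values were seen, was at 4.29, 7.85 and 4.75 CPM and at 13.1, 6.60 and 5.77 CPM, with overlapping groups (log2 fold change 0.59, edgeR, adjusted p = 0.543). HSPB11, a ciliary transport protein despite its symbol, had overlapping groups at 27.1, 19.1 and 29 CPM and at 13.6, 18.0 and 21.3 CPM (log2 fold change -0.51, edgeR, adjusted p = 0.409). HSPB9 was under the filter with 7 to 14 counts in sgControl and 9 to 11 in sgRFX6. Summed over the 8 HSPB genes, the level was 751, 919 and 755 CPM against 909, 889 and 572 CPM, most of it HSPB1.

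**Figure D2:**
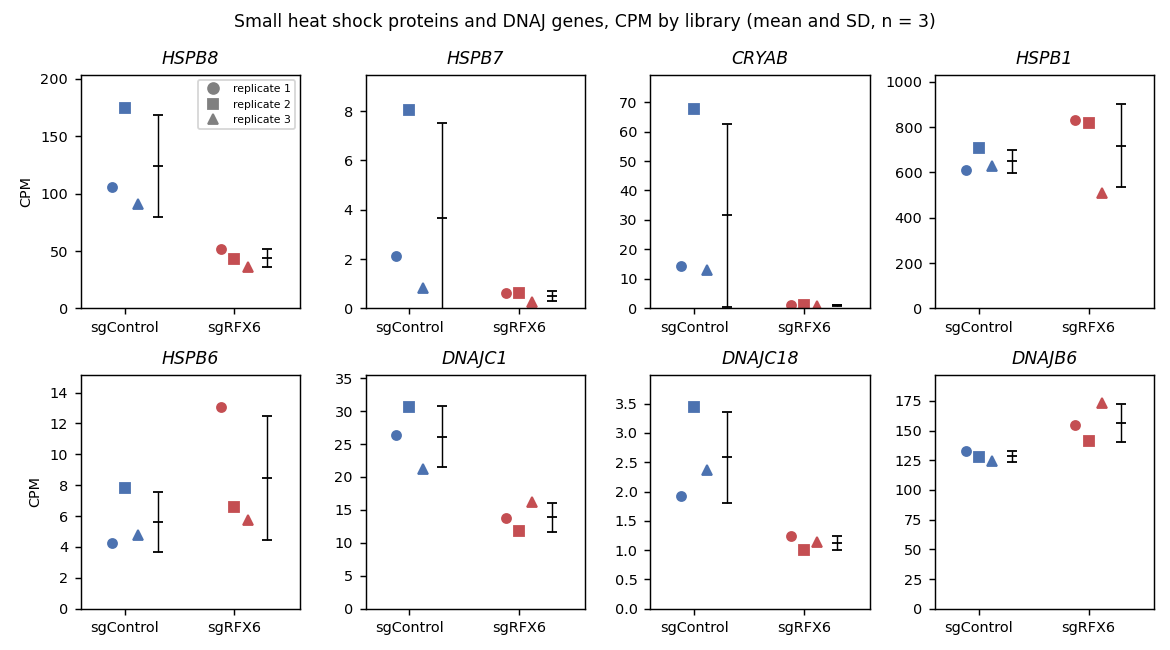
CPM (vertical axes) in each of the 6 libraries for 5 small heat shock protein genes, CRYAB among them, and for DNAJC1, DNAJC18 and DNAJB6. Symbols mark the replicate number and bars the mean and SD of 3 libraries, which for HSPB7 are cut at 0. HSPB8, HSPB7 and CRYAB were highest in sgControl library 2 and lower in every sgRFX6 library than in any control.

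Of the 35 DNAJ genes tested, edgeR called 0, against 3.74% of all genes. At an unadjusted p under 0.05, 2 passed, DNAJC1 and DNAJC18, where 15.6% of all genes did. DESeq2 called 1, DNAJC1, edgeR with the GC correction called the same 2, and limma-voom called 8, adding DNAJB4, DNAJB6, DNAJC9, DNAJC14, DNAJC21 and DNAJC30. Of all genes, DESeq2 called 6.97%, the GC correction 11.7% and limma-voom 31.1%. DNAJC1, an ER membrane protein whose J domain faces the lumen and serves HSPA5 (chr10:21756537-22003769), came closest. It was at 26.4, 30.6 and 21.3 CPM in sgControl and 13.8, 11.7 and 16.2 CPM in sgRFX6, without overlap. The log2 fold change was -0.91 ± 0.24 (SE, edgeR, adjusted p = 0.0803). DESeq2 called it (adjusted p = 0.0112), as did limma-voom (adjusted p = 0.00284), edgeR with the GC correction (adjusted p = 0.0277) and edgeR without sgRFX6 library 3 (adjusted p = 0.0422), and the largest adjusted p over the 15 other settings was 0.262. DNAJC18, an ER membrane protein whose J domain faces the cytosol, was scarce, at 1.93, 3.44 and 2.37 CPM against 1.24, 1.01 and 1.13 CPM. Its libraries did not overlap either, with a log2 fold change of -1.19 ± 0.35 (SE, edgeR, adjusted p = 0.117). It was called by limma-voom and with the GC correction, and over the other settings its adjusted p lay between 0.0135 and 0.297.

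DNAJB6, which keeps aggregation-prone proteins soluble, was at 133, 128 and 124 CPM in sgControl and 154, 141 and 173 CPM in sgRFX6. Every KO library was above every control, but the log2 fold change of 0.28 ± 0.15 (SE) did not pass the test (edgeR, adjusted p = 0.44), though limma-voom called it. Around it on chromosome 7, the median over the 50 closest genes was 0.40, larger than its own. The other genes without overlap were named after their values were seen. DNAJC8, a splicing-associated protein, was at 101, 117 and 101 CPM against 97.6, 76.2 and 87.8 CPM (log2 fold change -0.29, edgeR, adjusted p = 0.472). HSPA12A, an atypical member of the HSP70 family, was at 29.3, 27.8 and 35.4 CPM against 36.4, 36.1 and 35.7 CPM (log2 fold change 0.23, edgeR, adjusted p = 0.661), and its highest control came within 1 CPM of the lowest KO library.

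In the ER, most fold changes were positive, and their median changed sign without sgRFX6 library 3. Of the 8 ER genes, 7 had a positive log2 fold change, with a median of 0.22. EdgeR called 0 of them, against 3.74% of all genes. At an unadjusted p under 0.05, 1 passed (12.5% against 15.6% of all genes), DNAJC1, which DESeq2 and limma-voom called. Without sgRFX6 library 3, 0 of the 8 were positive and the median was -0.12. Without sgControl library 2, 5 were positive and the median was 0.07, without sgRFX6 library 2 the median was 0.48, and with the other libraries left out in turn it lay between 0.23 and 0.35. With the replicate number as a block it was 0.12. With the GC correction 5 were positive and the median was 0.07, and with both changes 4 were positive and the median was -0.02. Limma-voom, with its library weights, gave 1 positive gene and a median of -0.12. DNAJC1 was called without that library or with the correction, and lower in each case.

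HSPA5 (BiP), the ER HSP70 and the usual marker of ER stress, was not called by edgeR, DESeq2 or limma-voom. It was at 639, 341 and 512 CPM in sgControl and 545, 375 and 590 CPM in sgRFX6. The groups overlapped fully, with a log2 fold change of 0.02 (95% interval -0.59 to 0.62, edgeR, adjusted p = 0.987). Its promoter window (RefSeq, GRCh38.p14, chr9:125241294-125241593 on the minus strand) is shown because it held the ER stress response element, CCAAT and CCACG set 9 bases apart, in capitals from base 185.
HSPA5 promoter: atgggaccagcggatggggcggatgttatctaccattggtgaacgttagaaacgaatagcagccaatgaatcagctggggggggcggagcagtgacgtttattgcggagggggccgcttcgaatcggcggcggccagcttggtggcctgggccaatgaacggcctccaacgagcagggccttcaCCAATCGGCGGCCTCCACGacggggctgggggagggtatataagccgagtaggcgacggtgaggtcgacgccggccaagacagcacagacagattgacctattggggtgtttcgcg
HSP90B1 (GRP94), the ER HSP90, was the other gene of the set whose window held this element. It was at 535, 379 and 355 CPM against 400, 262 and 749 CPM, with sgRFX6 library 3 highest and library 2 lowest of all 6 (log2 fold change 0.15, edgeR, adjusted p = 0.909). Without library 3 its log2 fold change was -0.35.

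The ER J-domain proteins varied in the same way. DNAJC10, a disulfide reductase that works with HSPA5, was at 25.5, 12.9 and 22.1 CPM against 16.5, 21.1 and 53.6 CPM (log2 fold change 0.59, edgeR, adjusted p = 0.61). DNAJC3, which binds unfolded chains and passes them to HSPA5, was at 16.2, 8.74 and 9.88 CPM against 14.0, 8.98 and 26.7 CPM (log2 fold change 0.52, edgeR, adjusted p = 0.636). For each, sgRFX6 library 3 was above all other libraries, and without it the log2 fold change was -0.09 and -0.01. DNAJB9, a target of the IRE1 and XBP1 arm, was at 10.4, 7.89 and 10.7 CPM against 10.3, 7.35 and 17.8 CPM, and HSPA13, an atypical ER HSP70, at 9.92, 4.57 and 7.34 CPM against 6.65, 5.84 and 14.6 CPM. In both, library 3 of the KO was again the highest. DNAJB11, a soluble HSPA5 co-chaperone with a transcript GC content of 49.5%, differed least, at 92.8, 52.8 and 80.7 CPM against 76.8, 61.1 and 88.8 CPM (log2 fold change 0.00, edgeR, adjusted p = 0.997).

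The excess in sgRFX6 library 3 went with base composition. Across the 60 chaperone genes, the difference of library 3 from sgRFX6 library 1 had a Spearman correlation of -0.814 with the GC content of the transcript, and across 12206 genes of all kinds -0.834. Against sgRFX6 library 2 the values were -0.835 and -0.827. Genes are not independent replicates, and these are descriptions of the libraries. The GC content of transcripts, weighted by counts, was 50.9% in sgRFX6 library 3 and 52.2% to 53.6% in the other 5 libraries, of which sgControl library 1 was the lowest. Within each group, the summed ER genes were in the reverse order of this GC content, which did not hold across all 6 libraries: they were at 1355, 838 and 1019 CPM in sgControl and 1083, 754 and 1556 CPM in sgRFX6, highest in sgControl library 1 and in sgRFX6 library 3. The log2 fold changes of the 60 genes had a Spearman correlation of -0.406 with GC content, against -0.146 over all genes. The part of base composition in the other fold changes was not tested beyond the correction.

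**Figure D3:**
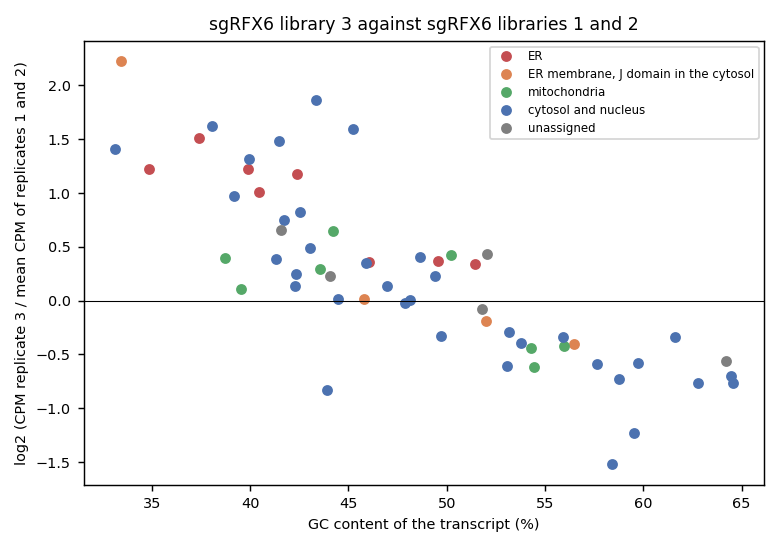
GC content of the transcript (horizontal axis, %) and log2 ratio of CPM in sgRFX6 library 3 to the mean of sgRFX6 libraries 1 and 2 (vertical axis) for the chaperone genes, coloured by compartment. The points fall from upper left to lower right, and the 8 ER genes (red) all lie above 0.

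The same library set the sign of the fold change of several cytosolic chaperones. HSP90AA1, the stress-inducible HSP90, was at 809, 513 and 604 CPM in sgControl and 492, 398 and 1341 CPM in sgRFX6. KO libraries 1 and 2 were below every control, and library 3 was above all of them, so the log2 fold change of 0.21 (edgeR, adjusted p = 0.893) became -0.52 without library 3. HSPH1, an HSP110 protein induced by heat, was at 99.5, 54.0 and 81.4 CPM against 59.8, 54.7 and 143 CPM (log2 fold change 0.13, and -0.45 without library 3). HSPA4L, another HSP110 protein, was at 19.8, 8.26 and 11.0 CPM against 13.4, 11.8 and 38.7 CPM, with a log2 fold change of 0.71 that became -0.04. HSP90AB1 varied little, at 1549, 1393 and 1553 CPM against 1434, 1355 and 1405 CPM (log2 fold change -0.10, edgeR, adjusted p = 0.863).

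**Figure D4:**
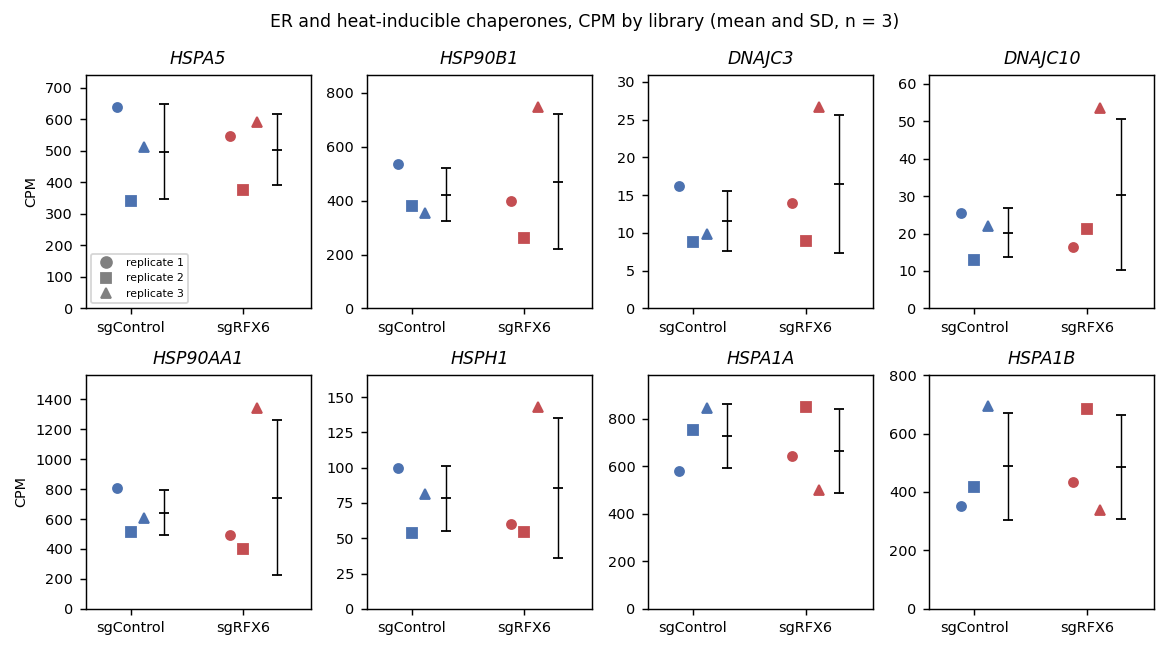
CPM (vertical axes) in each of the 6 libraries for 4 ER chaperones and 4 cytosolic chaperones, with the replicate number as the symbol and bars for the mean and SD of 3 libraries. sgRFX6 library 3 was the highest of the 6 for HSP90B1, DNAJC3, DNAJC10, HSP90AA1 and HSPH1, and the lowest for HSPA1A and HSPA1B.

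EdgeR and DESeq2 called none of the genes listed as heat-inducible. HSPA1A and HSPA1B encode almost the same HSP70 protein from neighbouring genes in the major histocompatibility complex on chromosome 6, so counts may be divided between them in either way. HSPA1A was at 582, 754 and 846 CPM in sgControl and 645, 850 and 500 CPM in sgRFX6, and HSPA1B at 351, 416 and 696 CPM against 433, 684 and 338 CPM. Summed, the pair was at 933, 1170 and 1542 CPM against 1078, 1534 and 838 CPM, with groups that overlapped although sgRFX6 library 3 was below every control (two-sided exact permutation test, p = 0.7). The HSPA1A window (RefSeq, GRCh38.p14, chr6:31815293-31815592 on the plus strand) is shown as the classical heat shock promoter, with its element in capitals at base 145.
HSPA1A promoter: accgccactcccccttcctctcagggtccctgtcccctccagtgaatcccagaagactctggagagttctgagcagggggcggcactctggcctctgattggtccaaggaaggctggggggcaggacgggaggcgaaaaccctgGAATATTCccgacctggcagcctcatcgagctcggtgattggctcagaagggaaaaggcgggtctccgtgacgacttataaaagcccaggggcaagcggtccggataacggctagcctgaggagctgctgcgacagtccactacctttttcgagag
The 8 bases in capitals are the same as those of the element at base 163 of the HSPB8 window.

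DNAJB1 (HSP40), the heat-induced partner of HSPA1A, was at 136, 131 and 199 CPM against 162, 221 and 126 CPM. Its order over the libraries was that of HSPA1A and HSPA1B within the KO, with library 2 highest and library 3 lowest, and the log2 fold change was 0.13 (edgeR, adjusted p = 0.891). DNAJA1, a farnesylated J-domain protein, was at 253, 177 and 246 CPM against 211, 224 and 365 CPM (log2 fold change 0.24, edgeR, adjusted p = 0.737). HSPA6, a strictly inducible HSP70, was at 1.64, 0.243 and 2.63 CPM against 0.298, 1.01 and 0.227 CPM, and its groups overlapped at this low depth (log2 fold change -1.6, 95% interval -3.50 to 0.29, edgeR, adjusted p = 0.417). DNAJB4, a cytosolic relative of DNAJB1, was at 21.6, 7.61 and 12.7 CPM against 8.14, 7.85 and 21.2 CPM. The 12 genes listed as heat-inducible also held HSPA8, the constitutive HSP70, and the mitochondrial HSPD1. The list did not hold DNAJA4, which was under the filter. Over these 12, edgeR called 0, against 3.74% of all genes, and 0 passed at an unadjusted p under 0.05, against 15.6%. DESeq2 called 0, against 6.97% of all genes. Limma-voom called HSPB1 higher and HSPA6 and HSPH1 lower, where it called 31.1% of all genes. By edgeR 9 lay above and 3 below 0 on the log2 scale, and the median was 0.14. Without sgRFX6 library 3, 5 were positive and 7 negative.

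HSPA8, which folds new chains and uncoats clathrin vesicles, was at 1240, 1282 and 1400 CPM in sgControl and 1362, 1530 and 1589 CPM in sgRFX6. Its lowest KO library was within the range of the controls, and the log2 fold change was 0.19 (95% interval -0.20 to 0.58, edgeR, adjusted p = 0.688), against a median of 0.38 over the 50 genes closest to it on chromosome 11. HSPA4, the constitutive HSP110 exchange factor, was at 226, 171 and 184 CPM against 169, 135 and 269 CPM (log2 fold change -0.02, edgeR, adjusted p = 0.983). HSPA2, a testis-enriched HSP70, was at 5.39, 8.66 and 5.09 CPM against 5.36, 4.33 and 2.72 CPM (log2 fold change -0.63, edgeR, adjusted p = 0.45). DNAJB2, which brings HSP70 clients to the proteasome, was at 30.7, 28.1 and 30.4 CPM against 28.0, 29.6 and 22.7 CPM. Over the 35 cytosolic and nuclear genes tested, 13 lay above and 22 below 0 on the log2 scale, their median being -0.06, or -0.20 over the 36 tested without sgRFX6 library 3. HSPB8 was the one call of edgeR (2.86% against 3.74% of all genes).

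EdgeR called 0 of the 8 mitochondrial chaperones, against 3.74% of all genes, and 0 passed at an unadjusted p under 0.05, against 15.6%. DESeq2 called 0, against 6.97% of all genes, while limma-voom called DNAJC30 higher, where it called 31.1%. HSPD1 (HSP60) was at 827, 591 and 708 CPM against 722, 623 and 1051 CPM, with a log2 fold change of 0.17 (edgeR, adjusted p = 0.822). HSPE1, its co-chaperonin, shares a bidirectional promoter and exon bases with HSPD1 on the opposite strand, and was at 98.8, 105 and 130 CPM against 71.3, 137 and 140 CPM. Reads of these 2 genes may have been mixed in the same way as for CRYAB and HSPB2. HSPA9 (mortalin), the HSP70 that pulls precursors into the matrix, was at 533, 448 and 502 CPM against 518, 435 and 586 CPM (log2 fold change 0.05, edgeR, adjusted p = 0.94). Its partner DNAJA3 was at 190, 194 and 217 CPM against 242, 286 and 195 CPM (log2 fold change 0.27, edgeR, adjusted p = 0.56). DNAJC15, an import motor subunit, was at 6.26, 7.08 and 5.61 CPM against 7.99, 6.22 and 9.35 CPM. Of the 8 mitochondrial genes, 7 had a positive log2 fold change and the median was 0.12, but without sgRFX6 library 3 there were 4 positive and 4 negative with a median of 0.00.

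**Figure D5:**
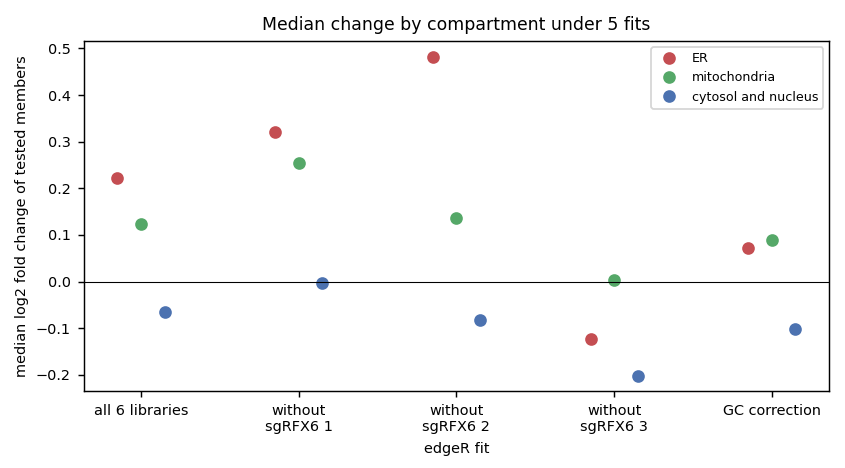
Median log2 fold change (vertical axis) of the ER, mitochondrial and cytosolic genes tested, under 5 edgeR fits (horizontal axis): all 6 libraries, each sgRFX6 library left out, and the GC correction. The ER median (red) was 0.22 with all libraries and -0.12 without sgRFX6 library 3, and 0.07 after the correction.

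The genes that regulate or work beside these chaperones were tested as lists set by function. Of 37 genes of the unfolded protein response and ER folding, 1 rose and 1 fell by edgeR (5.41%, with a median log2 fold change of 0.10 against 0.02 over all genes). The libraries of the groups did not overlap for 7 of the 37, 5 higher and 2 lower (18.9% against 23.1% of all genes). Limma-voom called 10 of the 37, 8 higher and 2 lower, where it called 31.1% of all genes. TXNDC11, a thioredoxin-domain protein of the ER, rose from 45.6, 42.4 and 42.4 CPM to 83.1, 71.2 and 69.1 CPM (log2 fold change 0.78, edgeR, adjusted p = 0.0397), a call lost when any library other than sgRFX6 library 3 was left out (log2 fold changes 0.69 to 0.83). ERO1B, which oxidises protein disulfide isomerases, fell from 1.83, 1.66 and 1.6 CPM to 0.0993, 0.0628 and 0.318 CPM (log2 fold change -3.29, edgeR, adjusted p = 0.0114), a call lost without sgRFX6 library 1 (-3.02). XBP1, the transcription factor of the IRE1 arm, had a log2 fold change of 0.12 and the ER HSP110 gene HYOU1 of 0.23, neither called by edgeR, while limma-voom called HYOU1 (adjusted p = 0.0292).

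Of 10 genes of the integrated stress response, 1 rose and 1 fell by edgeR (20% against 3.74% of all genes), with 0 called by edgeR with the replicate block. Limma-voom called 5 of the 10, 4 higher and 1 lower, where it called 31.1% of all genes. ATF4, named after its values were seen, was at 483, 498 and 411 CPM in sgControl and 395, 360 and 272 CPM in sgRFX6. Its groups did not overlap, and it was lower in the KO (log2 fold change -0.44, edgeR, adjusted p = 0.317). DDIT3 (CHOP), a transcription factor of prolonged ER stress, was at 17.7, 14.0 and 17.9 CPM in sgControl and 35.0, 37.8 and 26.7 CPM in sgRFX6, with every KO library above every control (log2 fold change 1.0 ± 0.23, SE, edgeR, adjusted p = 0.046). Its call was lost when any of the 5 libraries other than sgRFX6 library 3 was left out, with adjusted p-values of edgeR up to 0.182, and with log2 fold changes of 0.89 to 1.14 over all leave-outs. VLDLR, a lipoprotein receptor, fell from 21.3, 27.2 and 20.9 CPM to 13.2, 10.6 and 10.9 CPM (log2 fold change -1.0, edgeR, adjusted p = 0.045), and its call was likewise lost in each of the same 5 fits. HSPA5, DNAJB9 and DNAJC3, which ER stress also induces, were not called beside DDIT3 by edgeR, DESeq2 or limma-voom. Of the 37 genes of the unfolded protein response and ER folding, 5 were higher in every KO library and 2 lower. Among the 5 were PDIA4 and ERN1, named after their values were seen (log2 fold changes 0.50 and 0.66, edgeR, adjusted p = 0.156 and 0.179). Limma-voom called both. Whether the KO libraries differed in ER stress was not tested.

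Of 32 heat shock factors and other co-chaperones, CRYAB was the one call of edgeR and of DESeq2 (3.12%, against 3.74% and 6.97% of all genes). Limma-voom called 9, 3 higher and 6 lower, where it called 31.1% of all genes. HSF1 itself was at 273, 266 and 274 CPM against 277, 284 and 179 CPM, with a log2 fold change of -0.14 (edgeR, adjusted p = 0.842). EdgeR and DESeq2 called 0 of the 14 genes of the cytosolic chaperonin CCT and prefoldin (10 negative and 4 positive, median -0.13), and 0 of 13 genes of mitochondrial protein quality control (10 negative and 3 positive, median -0.12). At an unadjusted p under 0.05, 1 of the 14 (7.14%) and 2 of the 13 (15.4%) passed in edgeR, against 15.6% of all genes. Limma-voom called 6 of each list, where it called 31.1% of all genes. Its 6 calls of CCT and prefoldin were all lower, and those of the mitochondrial list were 3 higher and 3 lower. The libraries did not overlap for 4 of the 14, all lower (28.6%), and for 3 of the 13, 2 higher and 1 lower (23.1%), against 23.1% of all genes. Of 17 immediate early genes, which respond to handling of cells, NR4A1 fell from 24.7, 14.4 and 14.0 CPM to 7.40, 3.52 and 4.63 CPM (log2 fold change -1.77, edgeR, adjusted p = 0.0296), a call lost when any library other than sgRFX6 library 1 was left out. EdgeR (5.88% of the list against 3.74% of all genes) and DESeq2 called no other of them, whereas limma-voom called 5 more, all higher.

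The promoters of the set held heat shock elements in a larger share than promoters in general, a difference given without a test. RefSeq windows were found for 62 of the 69 genes (81 windows, since some genes have several starts) out of 35116 windows in all. One form or the other was present in 28.4% of the chaperone windows and in 13.5% of all windows. GAANNTTC was in 22.2% against 6.77%, and TTCNNGAA in 16.0% against 7.74%. The 22 genes with an element are mostly cytosolic, among them HSPA1A, HSPA1B, HSPA8, HSP90AA1, HSP90AB1, DNAJB1, HSPB1 and HSPB8. No window was found for the ER gene DNAJC1, and 0 of the ER genes with a window had an element. The ER stress response element was in 2.47% of the chaperone windows, those of HSPA5 and HSP90B1, and in 0.0769% of all. GTTGCC, the core of the X-box that RFX factors bind, searched on both strands, was in 12.3% against 12.2%, and was in neither the HSPB8 nor the HSPB7 window.

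Of 19 tested genes with a heat shock element, 11 lay above and 8 below 0 on the log2 scale (median 0.13). Of 36 tested genes whose windows held none, 19 were positive and 17 negative (median 0.01). A match is a run of letters in this window and not a measured binding site.

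The 9 genes under the filter were DNAJA4, DNAJB7, DNAJB13, DNAJC5B, DNAJC5G, DNAJC28, HSPB2, HSPB3 and HSPB9. None exceeded 22 counts in any library. For DNAJA4, a heat-inducible cytosolic co-chaperone, the controls gave 0, 9 and 0 counts and the KO libraries 3, 0 and 5, and DNAJC28 had 11, 12 and 9 against 4, 4 and 9. Differences in these genes were not detectable at this depth.

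Several chaperone genes on chromosomes 7 and 11 lay among genes whose median log2 fold change was positive. Over the 50 closest genes tested, the median was 0.38 around HSPB1, whose own log2 fold change was 0.15, and 0.36 around DNAJC30 (0.45), and it was 0.42 around both DNAJC4 (-0.22) and CRYAB (-4.86). For CRYAB, which was called, and DNAJC4, which was not, the sign was opposite to that of the surrounding genes.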

How the data were processed

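RNA was extracted with Trizol, and the authors deposited 1 table of raw counts, the number of reads per gene in each of 6 libraries. The submitters' processing notes name GRCh38 (hg38), and the aligner, the counting program and the annotation are not given in the sources used here. Columns were assigned to samples by name, cas to sgControl and sg3 to sgRFX6. A row without a gene name (at most 9.17e-05% of a library's counts) was left out.

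The deposited counts went into edgeR 4.0.16 (R 4.3.3). Genes passing filterByExpr (minimum count 10, minimum total 15) were scaled by TMM and compared over all 6 libraries by the quasi-likelihood test with no covariate, with Benjamini-Hochberg adjustment over all genes tested (threshold 0.05). The biological coefficient of variation common to all genes was 0.269. Standard errors were derived from fold changes and F statistics, and positions, exon lengths and GC content came from GENCODE v29 on GRCh38, which matched 15422 row names by name and 256 by another symbol, while 1043 did not match. Positions of promoters came from RefSeq. The libraries of a group differed beyond sampling noise (chi-square between 17.0 and 124 for each degree of freedom). Intervals and floors cover counting error or the spread of these libraries only, since PCR copies of a molecule are counted separately. The code was tested on simulated counts.

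The genes named are chaperone genes with an adjusted p under 0.05, those at least 1 away from 0 on the log2 scale whose groups did not overlap, a set of 31 chosen by role, RFX6, and from the lists the genes called plus HSF1, XBP1, DDIT3 and HYOU1. Any other gene was named after its values were seen. Compartments and lists (unfolded protein response and ER folding, integrated stress response, heat shock factors and co-chaperones, CCT and prefoldin, mitochondrial proteostasis, immediate early genes, heat-inducible members, and hepatocyte, fibroblast, blood and endothelial markers) were written from general knowledge. Calls among the blood markers are not reported here. The members and lists were chosen with earlier results of these data known. Other settings were scaling by RLE or by library size, DESeq2 1.42.0, limma-voom (limma 3.58.1, with quality weights for libraries), robust dispersion, no filter, a minimum count of 50, a block for the replicate number, fits leaving out each library, and a GC correction (loess span 0.3 on log2 CPM with a prior count of 2, used as offsets). The GC correction without sgRFX6 library 3 was added after seeing the data.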

Additional observations from a re-analysis of the deposited data

How the results depend on the processing

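HSPB8 was called in 13 of the 15 other settings tried and in the fit added after seeing the data, and was lower in the KO in all of them. The number of chaperone genes called lower was 3 with DESeq2, 10 with limma-voom, 2 with the replicate block, 4 with the GC correction, 2 with that correction and without sgRFX6 library 3, and 0 to 2 with 1 library left out. Limma-voom was the setting that called any higher (5), and it called 3998 of all genes (31.1%), against 895 with DESeq2 (6.97%), 1428 with the GC correction (11.7%), 648 with the block (5.05%), 718 without sgRFX6 library 3 (5.52%), 845 with both of the last changes (6.84%) and 212 to 396 without another library. ER genes called numbered 1 with DESeq2, limma-voom, the GC correction, and that correction without sgRFX6 library 3, and 0 to 1 with 1 library left out. Cytosolic genes called numbered 2 with DESeq2, 10 with limma-voom, 2 with the block, 2 with the GC correction and 0 to 1 with 1 library left out. The cytosolic median lay between -0.20 and 0.017 with 1 library left out. The cause of these changes was not tested, except that fits without a library rest on fewer samples. The deviations of same-numbered libraries from their group means had correlations of -0.406, 0.174 and -0.087, and sgControl library 1 correlated best with sgRFX6 library 3 (0.565). These deviations sum to 0 in each group, and the libraries of a group differed with GC content. The correlations therefore cannot tell whether the replicate numbers pair the samples. Beside HSPB8, the block called HSPB7.

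Of 509 values of the named chaperone genes under other settings, 433 kept their direction and side of the threshold, 60 turned sign, 14 gained a call and 2 lost it. Leaving out 1 library at a time turned the sign of uncalled genes, whose log2 fold changes then ranged from -0.043 to 0.39 for DNAJA1, -0.12 to 0.36 for DNAJB1, -0.20 to 0.18 for DNAJB11, -0.80 to 0.29 for DNAJB4, -0.12 to 0.53 for DNAJB9, -0.093 to 0.89 for DNAJC10, -0.0089 to 0.83 for DNAJC3, -0.52 to 0.50 for HSP90AA1, -0.35 to 0.43 for HSP90B1, -0.21 to 0.60 for HSPA13, -0.35 to 0.046 for HSPA1A, -0.35 to 0.36 for HSPA1B, -0.35 to 0.17 for HSPA4, -0.040 to 1.14 for HSPA4L, -0.20 to 0.24 for HSPA5, -0.047 to 0.15 for HSPA9, -0.069 to 0.32 for HSPD1, -0.087 to 0.32 for HSPE1, -0.45 to 0.36 for HSPH1 and -0.26 to 0.054 for HSF1. Limma-voom turned the sign of DNAJA1 (-0.16), DNAJB1 (-0.042), DNAJB11 (-0.15), DNAJB9 (-0.087), DNAJC10 (-0.30), HSP90AA1 (-0.41), HSP90B1 (-0.081), HSPA13 (-0.20), HSPA5 (-0.070), HSPA9 (-0.014), HSPD1 (-0.040), HSPE1 (-0.52), HSPH1 (-0.47) and HSF1 (0.0053). No filter on low counts turned the sign of DNAJB11 (-0.0019). The GC correction turned the sign of DNAJB11 (-0.019), HSPA1B (0.0010), HSPA5 (-0.019) and HSPH1 (-0.032). The GC correction without sgRFX6 library 3 turned the sign of DNAJB11 (-0.19), HSP90AA1 (-0.48), HSP90B1 (-0.22), HSPA1B (0.071), HSPA5 (-0.088), HSPE1 (-0.15) and HSPH1 (-0.22). The replicate block turned the sign of HSPA1B (0.0020). EdgeR with all 6 libraries called none of the turned genes, while limma-voom called HSPH1 lower and DNAJB4. DDIT3 and TXNDC11 lost their calls with the block (adjusted p = 0.0523 and 0.0786, edgeR), as did VLDLR (0.0664). Without 1 library, NR4A1 had log2 fold changes from -2.11 to -1.45 and ERO1B from -4.26 to -2.98, with calls lost in 5 and 1 of 6 fits. Changes within the intervals given were not detectable with 3 libraries a group.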
